A study of Mus musculus with 12 samples.

Results

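C5ar1, Ccr3, P2rx1 and Olr1 are 4 cell surface receptors of mast cells and other myeloid cells, read as 4 of the 734 endogenous genes of an nCounter Myeloid Innate Immunity Panel. They were picked by name after earlier results of the same libraries were known, C5ar1 and Olr1 for their stimulation response and Olr1, Ccr3 and P2rx1 for their difference between stimulated Mettl3-edited and stimulated Kit-edited cells. Those 3 comparisons chose the members, so they are given for the 4 receptors as a description with no test. The comparison of resting Mettl3-edited with resting Kit-edited cells was not used for the choice and was tested.

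The RNA came from mast cells grown from bone marrow of C57Bl/6 mice in IL-3, the cytokine that drives this differentiation in culture, for several weeks. Cas9 and a repair template placed a zsGreen reporter with a polyA and stop cassette into exon 2 of Kit or exon 1 of Mettl3. The cells that glowed green were sorted before use. The sort selects a mixed population that carries the reporter, not a clone, and cells edited on 1 or on both alleles are not separated by it. The paper reports by staining that the sorted cells lost the targeted protein, Mettl3 or c-Kit. From Kit targeting with an earlier template, it proposes that loss of both alleles was the most frequent event. All 4 groups thus carry an edit, and the Kit-edited cells are the control of the study, with Kit the receptor for stem cell factor and Mettl3 the enzyme that writes N6-methyladenosine on mRNA. Each edit was studied in cells left resting (labelled US) or activated through IgE and antigen for 4 h (labelled IgE), in 3 replicates per group and 12 libraries in all. The study describes its replicates as independent and biological. The labels number them but do not tie them to separate mice or cultures, so the errors below measure the spread between these libraries, which may in part be technical.

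C5ar1 is the G protein-coupled receptor of the complement fragment C5a, an anaphylatoxin that attracts and activates myeloid cells. Ccr3 is the receptor of the eotaxins and of several other CC chemokines, and is best known from eosinophils, basophils and some mast cells. P2rx1 is an ATP-gated cation channel of the P2X family, studied in platelets, smooth muscle and mast cells. Olr1, also called LOX-1, is a C-type lectin-like scavenger receptor that takes up oxidized low-density lipoprotein, known mainly from endothelial cells and macrophages. Crosslinking of IgE on its receptor sends calcium, MAP kinase and NF-kappaB signals to the nucleus of a mast cell, where AP-1, NFAT and NF-kappaB act beside GATA factors of the lineage.

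The genes are unlinked. In GRCm39 with its GENCODE annotation, C5ar1 runs on the minus strand at chr7:15980668-15993465, Ccr3 on the plus strand at chr9:123822009-123831726, P2rx1 on the plus strand at chr11:72889875-72906026 and Olr1 on the minus strand at chr6:129462207-129484128. Each gene has 1 probe, which starts at base 595 of the C5ar1 transcript, base 664 of Ccr3, base 1046 of P2rx1 and base 304 of Olr1. The promoters are shown because the 4 receptors responded differently to the same stimulus. Each is the RefSeq sequence from 250 bases before to 50 bases after the start of the gene, on the strand of the gene and with GRCm38.p6 coordinates, at chr7:16259289-16259588 for C5ar1, chr9:124021721-124022020 for Ccr3, chr11:72998895-72999194 for P2rx1 and chr6:129507116-129507415 for Olr1. Capitals mark matches on either strand to short motifs of 3 factor families. The AP-1 motif was searched as TGAGTCA. The motif of the GATA factors was searched as AGATAA. The kappaB motif of NF-kappaB was searched as GGANNTTCC.
C5ar1: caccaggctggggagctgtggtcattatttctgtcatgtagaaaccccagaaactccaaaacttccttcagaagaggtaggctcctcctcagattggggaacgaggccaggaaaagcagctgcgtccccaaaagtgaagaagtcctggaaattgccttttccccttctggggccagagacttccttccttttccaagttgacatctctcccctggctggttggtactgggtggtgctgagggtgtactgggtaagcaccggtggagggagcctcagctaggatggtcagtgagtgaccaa
Ccr3: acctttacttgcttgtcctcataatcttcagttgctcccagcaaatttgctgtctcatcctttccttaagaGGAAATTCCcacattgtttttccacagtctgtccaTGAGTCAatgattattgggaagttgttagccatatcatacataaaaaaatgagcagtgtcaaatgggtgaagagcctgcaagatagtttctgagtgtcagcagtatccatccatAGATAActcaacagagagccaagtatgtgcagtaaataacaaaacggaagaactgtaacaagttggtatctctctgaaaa
P2rx1: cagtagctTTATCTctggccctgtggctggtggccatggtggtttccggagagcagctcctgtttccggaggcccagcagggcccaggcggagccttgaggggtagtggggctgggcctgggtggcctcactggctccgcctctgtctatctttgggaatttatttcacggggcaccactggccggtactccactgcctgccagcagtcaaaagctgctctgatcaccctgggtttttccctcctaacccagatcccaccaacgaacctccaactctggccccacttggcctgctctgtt
Olr1: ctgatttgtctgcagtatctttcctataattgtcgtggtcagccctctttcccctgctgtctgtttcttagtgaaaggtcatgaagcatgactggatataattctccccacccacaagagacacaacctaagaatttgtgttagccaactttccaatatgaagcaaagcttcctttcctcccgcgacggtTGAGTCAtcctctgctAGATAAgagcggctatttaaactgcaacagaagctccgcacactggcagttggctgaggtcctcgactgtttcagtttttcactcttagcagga

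The Ccr3 window held an AP-1 match from 144 bases before the start, a GATA match from 30 bases before it and a kappaB match, GGAAATTCC, from 179 bases before it. Of 32851 RefSeq promoters of the same length, 5.2% held the AP-1 letters, 11.2% the GATA letters and 4.26% the kappaB letters. The Olr1 window held an AP-1 match from 60 bases and a GATA match from 44 bases before the start. The P2rx1 window held a GATA match, read as TTATCT, from 242 bases before the start, and the C5ar1 window held none of the 3 motifs. The short NFAT core GGAAA, which is not capitalized, occurred 4 times in C5ar1, 3 times in Ccr3, where 1 match overlaps the kappaB match, 3 times in P2rx1 and 4 times in Olr1, and in 61.3% of all promoters. These matches describe letters within 300 bases and do not show binding.

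The 12 libraries held 504238 to 737910 endogenous counts each. Values below are scaled counts, that is raw barcode counts divided by the relative geometric mean of the 20 housekeeping probes of the library, a factor between 0.715 and 1.36. The 8 negative control probes averaged 7.13 to 22.8 raw counts per library, and a raw count above their mean plus 2 SD, a limit of 13.1 to 39.2 counts, was called above background. Counts of 1 probe cannot be set against those of another as amounts of mRNA, since probes differ in efficiency, so levels are compared only between libraries. All 10 mast cell marker genes, such as the IgE receptor chain Fcer1a and the protease Cpa3, were above background in all 12 libraries. Kit itself was counted at 1856 to 2856 scaled counts in resting and 738 to 1613 in stimulated libraries labelled Kit, against 2456 to 4057 and 1550 to 1845 in libraries labelled Mettl3. Kit was lower in the Kit-labelled library of 3 of 3 stimulated but 1 of 3 resting same-numbered pairs. Its probe starts at base 4275 of the transcript, downstream of the edited exon and so of the inserted polyA and stop cassette. There the resting mean was still 2513 scaled counts in Kit-labelled against 3016 in Mettl3-labelled libraries. Why Kit RNA was counted beyond the insert was not tested. Mettl3 has no probe on the panel, so these counts do not settle the edit and groups are named as labelled. In these bulk libraries, fewer expressing cells and less RNA per cell cannot be told apart.

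C5ar1 and P2rx1 were above background in 12 of 12 libraries. Ccr3 was above it in 7 of 12, namely in 3 of 3 stimulated Mettl3-edited libraries, 2 of 3 resting Kit-edited, 1 of 3 stimulated Kit-edited and 1 of 3 resting Mettl3-edited libraries. Olr1 was also above it in 7 of 12, namely in 6 of 6 stimulated libraries, 0 of 3 resting Kit-edited and 1 of 3 resting Mettl3-edited libraries. Outside stimulated Mettl3-edited cells Ccr3 was thus above background in 4 of 9 libraries, by 34 raw counts against a limit of 32.6, 26 against 20.1, 39 against 27.4 and 33 against 13.1.

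**Figure D1:**
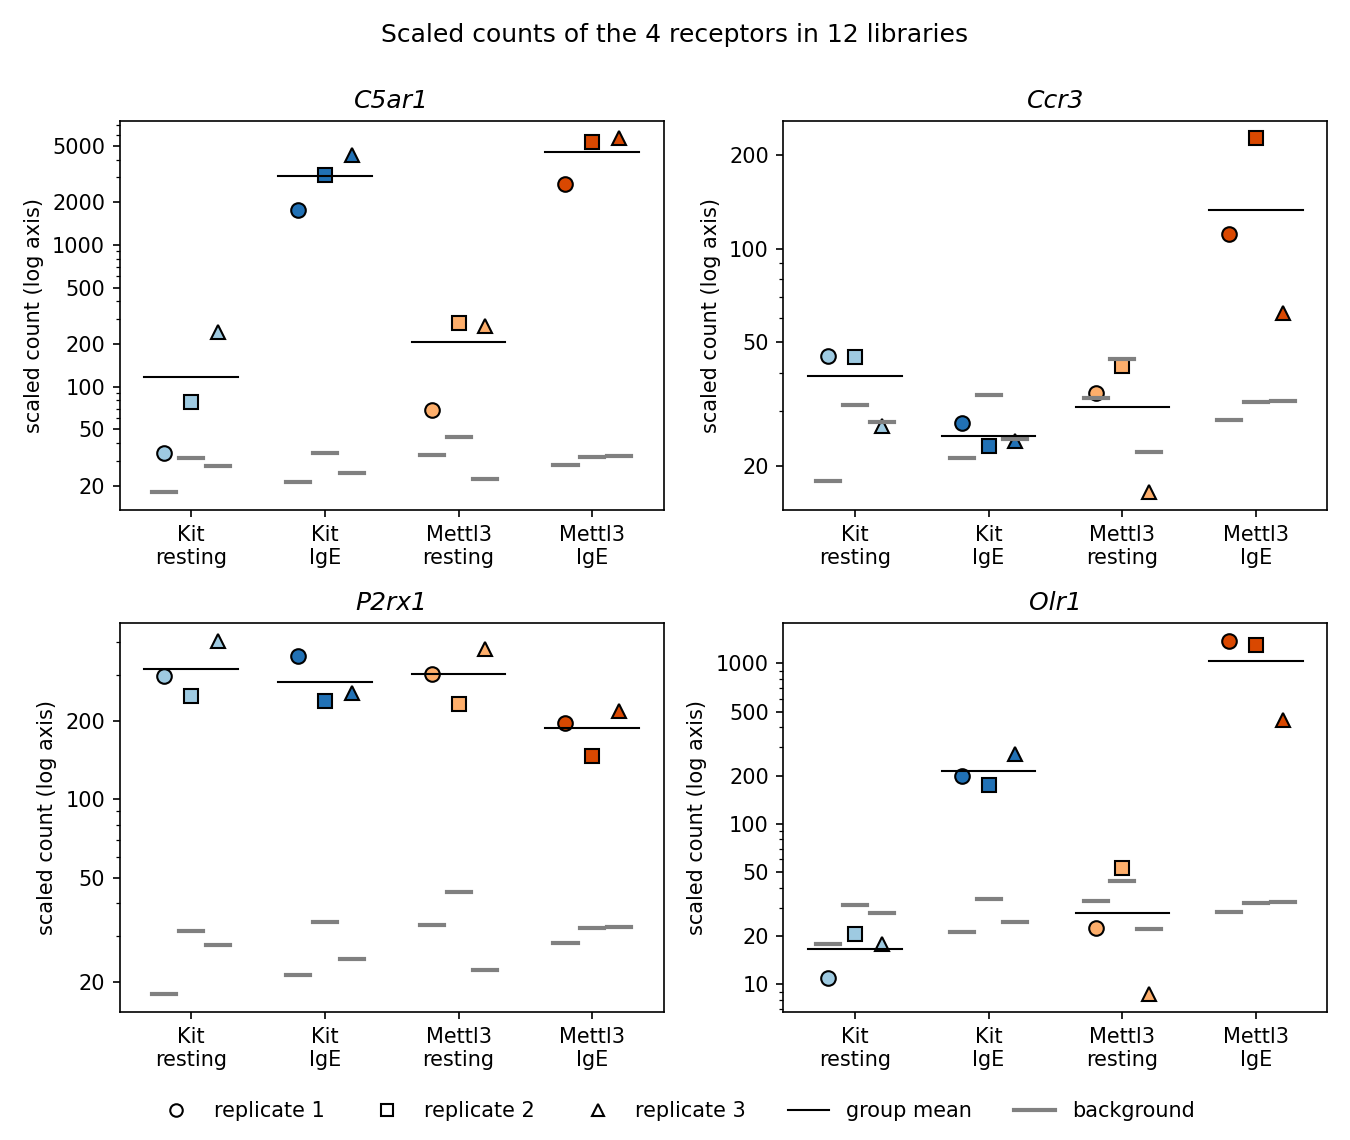
Scaled counts of C5ar1, Ccr3, P2rx1 and Olr1 (log axis) in 12 libraries, by edited gene and state; symbols are replicates, black lines are means of 3 libraries and grey ticks are each library's background, the negative control mean plus 2 SD, scaled like the counts. C5ar1 lies above background in 12 of 12 libraries and highest in the 6 stimulated ones, Olr1 leaves the background on stimulation, Ccr3 is highest in the 3 stimulated Mettl3-edited libraries, and P2rx1 is lowest in those 3.

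C5ar1, the C5a receptor, was far higher in stimulated than in resting cells of both genotypes. In Kit-edited cells its scaled counts in replicates 1, 2 and 3 were 34.2, 78.0 and 241 at rest and 1758, 3136 and 4314 after stimulation. In Mettl3-edited cells they were 68.0, 279.8 and 268 at rest and 2692, 5310 and 5649 after stimulation. The lowest stimulated library of either genotype thus exceeded the highest resting one, and the groups did not overlap. The fitted log2 difference of stimulated over resting cells was 4.69 (SE 0.77) in Kit-edited and 4.47 (SE 0.76) in Mettl3-edited cells, or 25.8-fold and 22.2-fold. Without replicate 3, the Kit-edited value was 5.44. The values over all 3 replicates ranked 6 and 20 from the highest of the 545 genes that passed the minimum for testing, which was 20 counts in 3 or more libraries. Stimulated groups lay wholly above resting groups for 18.3% of those 545 genes in Kit-edited cells and for 26.2% in Mettl3-edited cells.

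Between genotypes, C5ar1 was higher in the Mettl3-edited library of 3 of 3 same-numbered stimulated pairs, by 0.61, 0.76 and 0.39 on the log2 scale, but the groups overlapped. The fitted difference was 0.57 (SE 0.66), with the replicate number as a block 0.60 (SE 0.34), and with the block and without replicate 3 of stimulated Mettl3-edited cells 0.82 (SE 0.37). C5ar1 varied most between replicates of the 4 receptors, with a pooled SD within groups of 1.01 on the log2 scale. Replicate 1 had the lowest scaled C5ar1 count in 4 of 4 groups, and replicate 3 the highest in 3 of 4.

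Olr1, the oxidized lipoprotein receptor, went from background to clear counts with stimulation in both genotypes and reached the higher level in Mettl3-edited cells. Its scaled counts in replicates 1, 2 and 3 of Kit-edited cells were 10.96, 20.7 and 17.9 at rest and 199, 174 and 272 after stimulation. In Mettl3-edited cells they were 22.3, 53.2 and 8.68 at rest and 1386, 1291 and 445 after stimulation. Replicate 3 stood lower than the other two stimulated Mettl3-edited libraries, yet above the highest stimulated Kit-edited library. As resting counts were at background, stimulated Olr1 is best given as a bound, with resting libraries at no less than background. On that basis, mean stimulated counts were at least 8.37-fold higher than resting ones in Kit-edited cells and at least 28.8-fold higher in Mettl3-edited cells. These bounds, and those of other genes below, are ratios of group means and do not cover the spread between libraries. The fitted log2 differences, which depend on near-background counts, were 3.68 (SE 0.62) and 5.25 (SE 0.65).

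In stimulated cells alone, where every Olr1 count was above background, the mean was 1041 ± 518 (SD, n = 3) in Mettl3-edited and 215 ± 51.0 (SD, n = 3) in Kit-edited cells. The same-numbered pairs differed by 2.79, 2.89 and 0.71 on the log2 scale, each time with the Mettl3-edited library higher, and the fitted difference was 2.27 (SE 0.56), or 4.84-fold. The study's own table gives another number to the stimulated Mettl3-edited library labelled 3, and with the block and without that library the difference was 2.56 (SE 0.53). The genotypes did not overlap. Stimulated Mettl3-edited libraries lay wholly above stimulated Kit-edited ones for 14.3% of the 545 genes, and the median log2 difference of all of them was 0.20.

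Ccr3, the eotaxin receptor, had its highest counts in stimulated Mettl3-edited cells, the one group in which 3 of 3 libraries were above background. There its scaled counts were 112, 226 and 62.1 in replicates 1, 2 and 3, from 124, 184 and 75 raw counts. They were 34.5, 42.0 and 16.5 in resting Mettl3-edited cells, 45.2, 44.7 and 26.9 in resting Kit-edited cells and 27.6, 23.2 and 24.2 in stimulated Kit-edited cells, from 19 to 39 raw counts in those 9 libraries. The stimulated Mettl3-edited libraries exceeded each of the others in scaled counts. For comparison, they lay wholly above resting Mettl3-edited libraries for 26.2% of the 545 genes and wholly above stimulated Kit-edited ones for 14.3%. Relative to the negative controls of the same library, the order was less clear, since replicate 1 of resting Kit-edited cells had 33 raw counts, 4.63 times the mean of its low negative controls, and replicate 3 of stimulated Mettl3-edited cells had 75, or 3.30 times theirs. Against background or the measured count, whichever was higher, their mean of 133 ± 84.3 (SD, n = 3) was at least 3.96-fold the resting Mettl3-edited and at least 4.66-fold the stimulated Kit-edited mean. Single pairs of the same number varied around these ratios of means. The stimulated Mettl3-edited library was higher by 1.67, 2.40 and 1.85 on the log2 scale than the resting Mettl3-edited one. Over the stimulated Kit-edited library it was higher by 1.98, 3.23 and 1.33.

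The fitted log2 difference of Ccr3 was 2.11 (SE 0.48) for stimulated over resting Mettl3-edited cells and 2.41 (SE 0.48) for stimulated Mettl3-edited over stimulated Kit-edited cells, which share the stimulated Mettl3-edited libraries. In Kit-edited cells it was -0.63 (SE 0.48), with pairs at -0.69, -0.92 and -0.15, from 23 to 39 raw counts, of which 3 of 6 were above background. Both Ccr3 and Olr1 thus had their highest counts in stimulated Mettl3-edited cells. The libraries that set these values differed, since replicate 2 was the highest for Ccr3 and replicate 1 for Olr1, while replicate 3 was the lowest for both. Without replicate 2, the fitted Ccr3 difference between stimulated genotypes was 1.75, and with the block and without replicate 3 of stimulated Mettl3-edited cells it was 2.46 (SE 0.38).

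P2rx1, the ATP-gated channel, was well above background everywhere and was lowest in stimulated Mettl3-edited cells. Its scaled counts in replicates 1, 2 and 3 were 296, 248 and 405 in resting and 352, 238 and 254 in stimulated Kit-edited cells. In Mettl3-edited cells they were 300.3, 231 and 374 at rest and 195, 146 and 219 after stimulation. Each stimulated Mettl3-edited library was below every library of the other 3 groups, while those 3 groups overlapped. Replicate 2 had the lowest count in 4 of 4 groups, and the pooled SD within groups was 0.33 on the log2 scale, the smallest of the 4 receptors.

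The fitted log2 difference of P2rx1 in stimulated over resting Mettl3-edited cells was -0.69 (SE 0.29), with pairs at -0.62, -0.65 and -0.77, or 1.61-fold lower. Stimulated groups lay wholly below resting ones for 17.6% of the 545 genes in Mettl3-edited cells. In Kit-edited cells the difference was -0.17 (SE 0.29), with pairs at 0.25, -0.06 and -0.67 that pointed both ways. Stimulated Mettl3-edited over stimulated Kit-edited cells gave -0.59 (SE 0.29), with pairs at -0.84, -0.70 and -0.22, and -0.63 (SE 0.26) with the block and without replicate 3 of stimulated Mettl3-edited cells. Stimulated Mettl3-edited libraries lay wholly below stimulated Kit-edited ones for 1.65% of the 545 genes, P2rx1 among them.

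**Figure D2:**
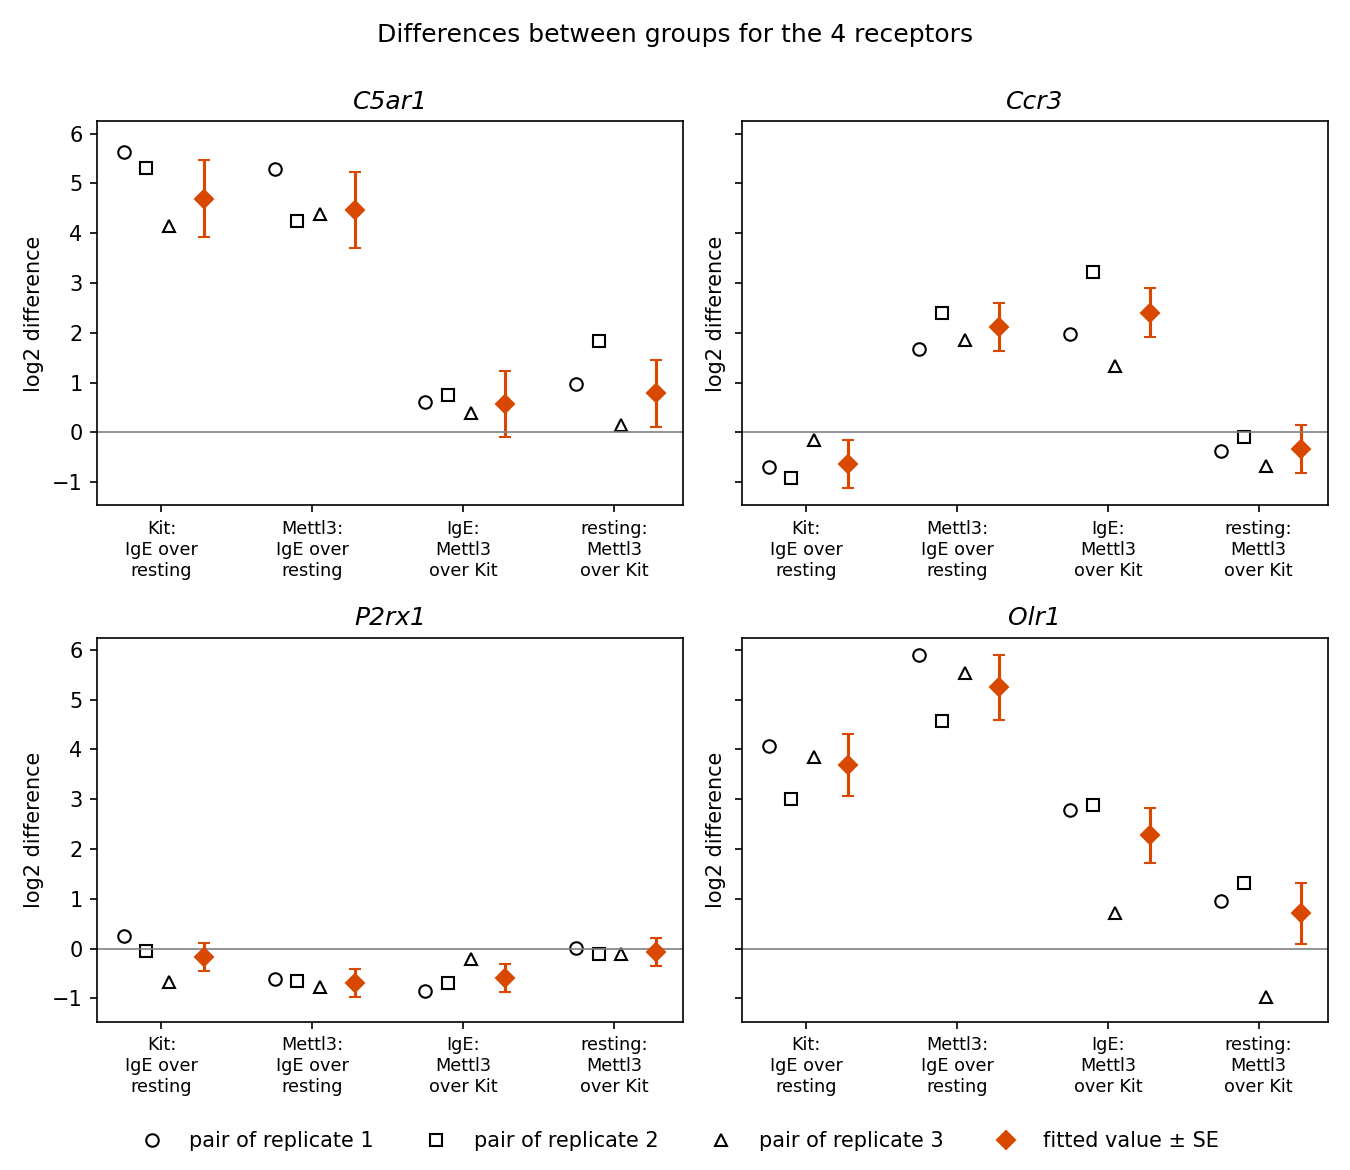
Log2 differences of scaled counts for the 4 receptors in 4 comparisons; open symbols are the 3 same-numbered pairs and diamonds are fitted values with their SE over 12 libraries. Stimulation differences exceed 4 for C5ar1 in both genotypes, the 3 Ccr3 pairs lie below 0 in Kit-edited and above 0 in Mettl3-edited cells, and the P2rx1 differences stay between -0.84 and 0.25.

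At rest, the receptors could be tested between genotypes. By edgeR's quasi-likelihood test, adjusted over 545 genes by the Benjamini-Hochberg method, the resting Mettl3-edited over Kit-edited log2 difference was 0.79 for C5ar1 (SE 0.68, 95% interval -0.68 to 2.26, adjusted p = 0.997). C5ar1 was higher in the Mettl3-edited library of 3 of 3 resting pairs, by 0.97, 1.83 and 0.15, and with the replicate block its difference was 0.91 (SE 0.36, edgeR adjusted p = 0.992). It was -0.07 for P2rx1 (SE 0.29, 95% interval -0.69 to 0.56, adjusted p = 0.997 in the same edgeR test). Ccr3 and Olr1, which were near background in most resting libraries, also had an adjusted p of 0.997 and are given no fold. Of the 545 genes, 0% were called higher and 0% lower in this comparison at an adjusted p under 0.05 by edgeR. By DESeq2 0 were called as well, and 7 had an unadjusted p under 0.05 in edgeR's test. The C5ar1 interval, from the fit without the replicate block, runs up to 2.26 on the log2 scale. With 3 libraries per group, that fit did not exclude differences within it.

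Markers of other cells that use these receptors were set beside them. Of 7 eosinophil markers, 6 (Epx, Prg2, Prg3, Ear6, Il5ra and Rnase2a) were at background in all 12 libraries. The remaining one, the lectin Siglecf, was above it in 6 of 6 stimulated and 0 of 6 resting libraries, at 25.4 to 76.9 scaled counts in stimulated Kit-edited and 47.7 to 132 in stimulated Mettl3-edited cells. The summed eosinophil markers ran from 108 to 127 and from 81.6 to 130 scaled counts in resting Kit-edited and Mettl3-edited cells, and from 107 to 143 and from 144 to 214 in stimulated ones. Their part in the Ccr3 counts was not tested.

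All 8 neutrophil markers and all 3 platelet markers, Pf4 among them, were at background in every library, as were 9 of 11 macrophage markers, while Adgre1 and C1qa passed it in some. In the summed macrophage markers, the groups ran from 163 to 190 and 148 to 187 scaled counts in resting and stimulated Kit-edited cells, and from 151 to 243 and 182 to 203 in Mettl3-edited cells. Neutrophil markers summed to between 73.8 and 130 scaled counts and platelet markers to between 32.9 and 59.1 over the 4 groups. Of 4 endothelial markers, Tek was above background in 12 of 12 libraries, with 73.4 to 216 scaled counts at rest and 35.7 to 73.1 after stimulation, Flt1 in 1 library of each stimulated group, and Cdh5 and Sele in none. The endothelial sum was 114 to 149 and 141 to 275 scaled counts in resting Kit-edited and Mettl3-edited cells, and 82.8 to 126 and 84.7 to 111 in stimulated ones. The part of these cells in the C5ar1, P2rx1 and Olr1 counts was not tested.

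The ligands and relatives of the 4 receptors were examined as 7 lists of 57 panel genes in all, of which 35 had counts enough to be tested. The lists were drawn up by gene family and known ligand, but after earlier results of these libraries were known. Their calls and p-values are therefore no independent support. Stimulation changed 8 of the 35 in Kit-edited cells (6 higher, 2 lower) and 10 in Mettl3-edited cells (8 higher, 2 lower) at an adjusted p under 0.05. Over all 545 genes, 12.1% were called higher and 6.79% lower in Kit-edited cells, and 22% higher and 10.6% lower in Mettl3-edited cells. With the replicate number as a block, the number of genes called lower in Kit-edited cells rose from 37 to 67. Between stimulated genotypes, 0 of the 35 were called in edgeR's test (2 at an unadjusted p under 0.05, and 0 called by DESeq2), against 0.917% of all genes called higher and 0% called lower. In that comparison 3 genes were called lower by DESeq2. Between resting genotypes 0 of the 35 were called, with 1 at an unadjusted p under 0.05 in edgeR's test and 0 called by DESeq2. Adjusted p-values of single genes below are those of the quasi-likelihood test in edgeR, corrected over the 545 genes by Benjamini and Hochberg's method.

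The chemokines that bind Ccr3 rose strongly with stimulation, 3 of 4 tested in each genotype. Ccl24 (eotaxin-2) had scaled counts of 17.8, 26.4 and 38.6 in resting and 160.0, 250.2 and 283 in stimulated Kit-edited cells, a log2 difference of 3.05 (SE 0.36, edgeR adjusted p = 0.000399). In Mettl3-edited cells Ccl24 went from 27.4, 40.6 and 31.2 to 124, 151 and 190.4 (log2 difference 2.24, SE 0.35, edgeR adjusted p = 0.000656). Resting Ccl24 was above background in 1 of 3 libraries of each genotype. Against background or the measured count, whichever was higher, stimulated means were at least 7.88-fold higher in Kit-edited and 4.29-fold higher in Mettl3-edited cells, and every stimulated library exceeded every resting one of its genotype. Ccl7 (MCP-3) rose by a log2 difference of 4.13 (SE 1.19, edgeR adjusted p = 0.0322) in Kit-edited and 4.20 (SE 1.19, edgeR adjusted p = 0.0183) in Mettl3-edited cells. Its resting counts were uneven, since replicate 2 held 280.0 and 824 scaled counts in the Kit-edited and Mettl3-edited library, against 31.5 to 82.2 in the other resting libraries. Ccl5 (RANTES) rose by 4.00 (SE 0.70, edgeR adjusted p = 0.00283) and 4.54 (SE 0.70, edgeR adjusted p = 0.000648). Ccl5 was 82.7 to 440 scaled counts in stimulated Kit-edited and 304 to 1314 in stimulated Mettl3-edited cells, from resting counts of 13.5 to 37.8, of which 1 of 6 was above background, or at least 10.2-fold and 20.3-fold higher against background. Ccl24 and Ccl5 were called in both genotypes under 13 of 13 settings of the analysis.

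Ccl26 had mean scaled counts of 20.3 to 30.8 over the 4 groups and was not called. The eotaxin Ccl11, with Ccl8 and Ccl28, did not reach 20 counts in 3 libraries and had at most 24, 19 and 21 raw counts, above background in 0 of 12 libraries. The median log2 difference of the 4 tested ligands was 3.52 in Kit-edited and 3.22 in Mettl3-edited cells, against medians of -0.05 and 0.02 over all 545 genes. Ccr3 was above background in 3 of 3 libraries in stimulated Mettl3-edited cells alone, and Ccl24, Ccl7 and Ccl5 rose in both genotypes.

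**Figure D3:**
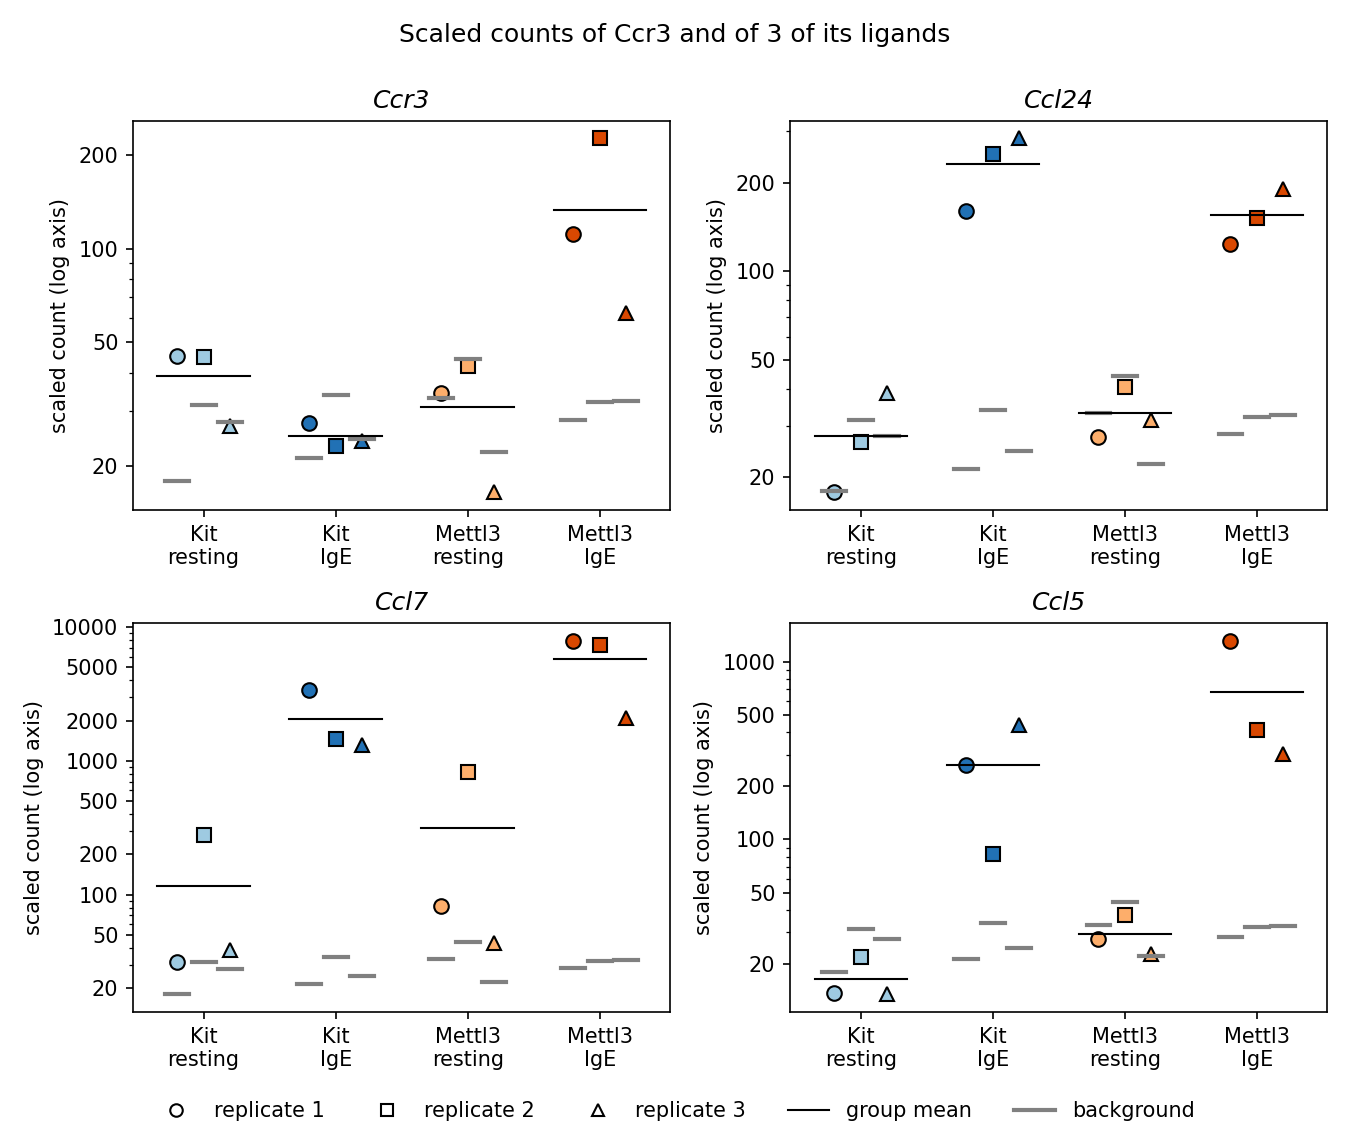
Scaled counts (log axis) of Ccr3 and of its ligands Ccl24, Ccl7 and Ccl5 in the 12 libraries, with symbols, mean lines and background ticks as for the plot of the 4 receptors. The 3 ligands are higher in the 6 stimulated than in the 6 resting libraries, while Ccr3 is highest in the 3 stimulated Mettl3-edited libraries.

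Among chemokine receptors, 9 of 17 were tested, and 1 rose and 1 fell in each genotype. Ccr1, which also binds Ccl5 and Ccl7, had scaled counts of 201 to 252 in resting and 387 to 625 in stimulated Kit-edited cells, a log2 difference of 1.11 (SE 0.33, edgeR adjusted p = 0.0369). In Mettl3-edited cells Ccr1 went from 87.2 to 232 at rest to 330 to 429 after stimulation (log2 difference 1.28, SE 0.34, edgeR adjusted p = 0.0126). Ccr1 was called under 8 of 13 settings in Kit-edited cells, not under TMM normalization, background subtraction or with any one replicate left out, and under 11 of 13 in Mettl3-edited cells. Of the panel genes Ccr9, Cxcr6, Xcr1, Ccr1 and Ccr2, all within 1 Mb of Ccr3, Ccr1 was above background in 12 of 12 libraries, Ccr2 in 4, Ccr9 in 2, and Cxcr6 and Xcr1 in 0. Unlike Ccr3, Ccr1 showed a fitted difference of -0.31 between stimulated genotypes, which was not called. Cx3cr1, the fractalkine receptor, fell from 1633 to 2180 scaled counts at rest to 57.1 to 451 after stimulation in Kit-edited cells (log2 difference -2.66, SE 0.55, edgeR adjusted p = 0.00652). In Mettl3-edited cells Cx3cr1 fell from 1321 to 1774 to between 100.2 and 130.4 (log2 difference -3.71, SE 0.58, edgeR adjusted p = 0.000648).

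C3ar1, the receptor of the other anaphylatoxin C3a, was counted well above background in all groups. Its mean scaled count was 914 and 1324 in resting and stimulated Kit-edited cells and 1099 and 1321 in Mettl3-edited cells, with log2 differences of 0.53 (SE 0.29) and 0.27 (SE 0.29) that were not called. It was called higher in Kit-edited cells with the replicate number as a block and by DESeq2. Of the other chemoattractant receptors, 6 of 9 tested, the leukotriene B4 receptor Ltb4r2 fell in Kit-edited cells from 40.2 to 58.9 scaled counts to 20.5 to 27.2, near background (log2 difference -1.07, SE 0.27, edgeR adjusted p = 0.0192). In Mettl3-edited cells Ltb4r2 had 36.4 to 49.7 scaled counts at rest and 22.5 to 33.2 after stimulation, a log2 difference of -0.64 (SE 0.27, edgeR adjusted p = 0.0942) that was called by DESeq2 alone. Of 6 complement proteins 2 were tested, and C3, the source of C3a, rose from 13.7 to 20.7 scaled counts at rest to 40.4 to 87.2 in stimulated Kit-edited cells (log2 difference 1.72, SE 0.34, edgeR adjusted p = 0.00541). In Mettl3-edited cells C3 rose from 13.0 to 19.6 to between 36.9 and 53.0 (log2 difference 1.40, SE 0.35, edgeR adjusted p = 0.0097). Resting C3 was above background in 0 of 6 libraries, so these fitted values are no bound, and against background stimulated C3 was at least 2.29-fold higher in Kit-edited and at least 1.31-fold higher in Mettl3-edited cells. C3 met the minimum for testing only with its stimulated libraries, so its p-values depend in part on that filter, though it stayed called with no filter. Hc, the gene of C5 and so of the C5ar1 ligand, had at most 22 raw counts and was above background in 1 of 12 libraries.

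Both adenosine receptors of the panel were tested beside P2rx1, as adenosine forms from released ATP. Adora2a, which couples to cyclic AMP, rose from 44.0 to 60.3 scaled counts at rest to 95.4 to 157 in stimulated Kit-edited cells (log2 difference 1.22, SE 0.32, edgeR adjusted p = 0.0244). In Mettl3-edited cells Adora2a rose from 46.0 to 69.0 to between 134 and 244 (log2 difference 1.57, SE 0.33, edgeR adjusted p = 0.00359). Adora3, the adenosine receptor long tied to mast cell degranulation in rodents, had means of 1547 to 1997 scaled counts over the 4 groups and was not called. The group with the highest mean of Adora2a, stimulated Mettl3-edited cells at 173 ± 61.2 (SD, n = 3), was the group with the lowest mean of P2rx1. Between stimulated genotypes, however, the Adora2a groups overlapped, with a log2 difference of 0.46 (SE 0.31) that was not called. That of Adora3 was -0.03 (SE 0.25).

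Of 13 scavenger receptors and lipoprotein genes, 11 were tested beside Olr1, with 0 called in Kit-edited and 2 in Mettl3-edited cells in the main edgeR fit. The lysosomal lipase Lipa was called lower in Kit-edited cells under 3 of 13 settings. These were DESeq2 and edgeR's replicate block, with and without replicate 3 of stimulated Mettl3-edited cells. In Mettl3-edited cells Lipa fell from 102 to 208 scaled counts at rest to 39.4 to 76.6 (log2 difference -1.45, SE 0.36, edgeR adjusted p = 0.0102). Lpl, lipoprotein lipase, went from 8.68 to 27.98 scaled counts to 21.5 to 51.7 (log2 difference 1.31, SE 0.45, edgeR adjusted p = 0.0431), from resting counts at background, or at least 1.18-fold higher against background, and was called under 7 of 13 settings. Of the stimulated Mettl3-edited libraries, 2 of 3 were above background for Lpl. Lpl met the minimum for testing only with its stimulated libraries, so its p-value depends in part on that filter. Its call was lost with no filter and after background subtraction. Over the 11 genes, log2 differences of stimulation had a median of -0.14 in Kit-edited and -0.09 in Mettl3-edited cells. The macrophage scavenger receptor Cd36 had at most 20 raw counts and was above background in 0 of 12 libraries.

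Olr1 lies in a cluster of C-type lectin genes, and 5 panel genes (Cd69, Clec1b, Clec9a, Clec7a and Klrk1) are within 1 Mb of it. Clec7a (Dectin-1), 12.5 kb away, was above background in 12 of 12 libraries and rose in Mettl3-edited cells from 36.5 to 47.6 scaled counts at rest to 64.0 to 86.5 (log2 difference 0.79, SE 0.27, edgeR adjusted p = 0.0404), a call made under 5 of 13 settings. In Kit-edited cells its log2 difference was 0.20 (not called). Cd69, an early activation antigen of lymphocytes, had log2 differences of -0.03 in Kit-edited and 0.89 in Mettl3-edited cells and was not called in either. Clec1b and Clec9a had at most 15 raw counts, and Klrk1 at most 28. None of the 722 panel genes with a position lay within 1 Mb of C5ar1 or P2rx1.

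**Figure D4:**
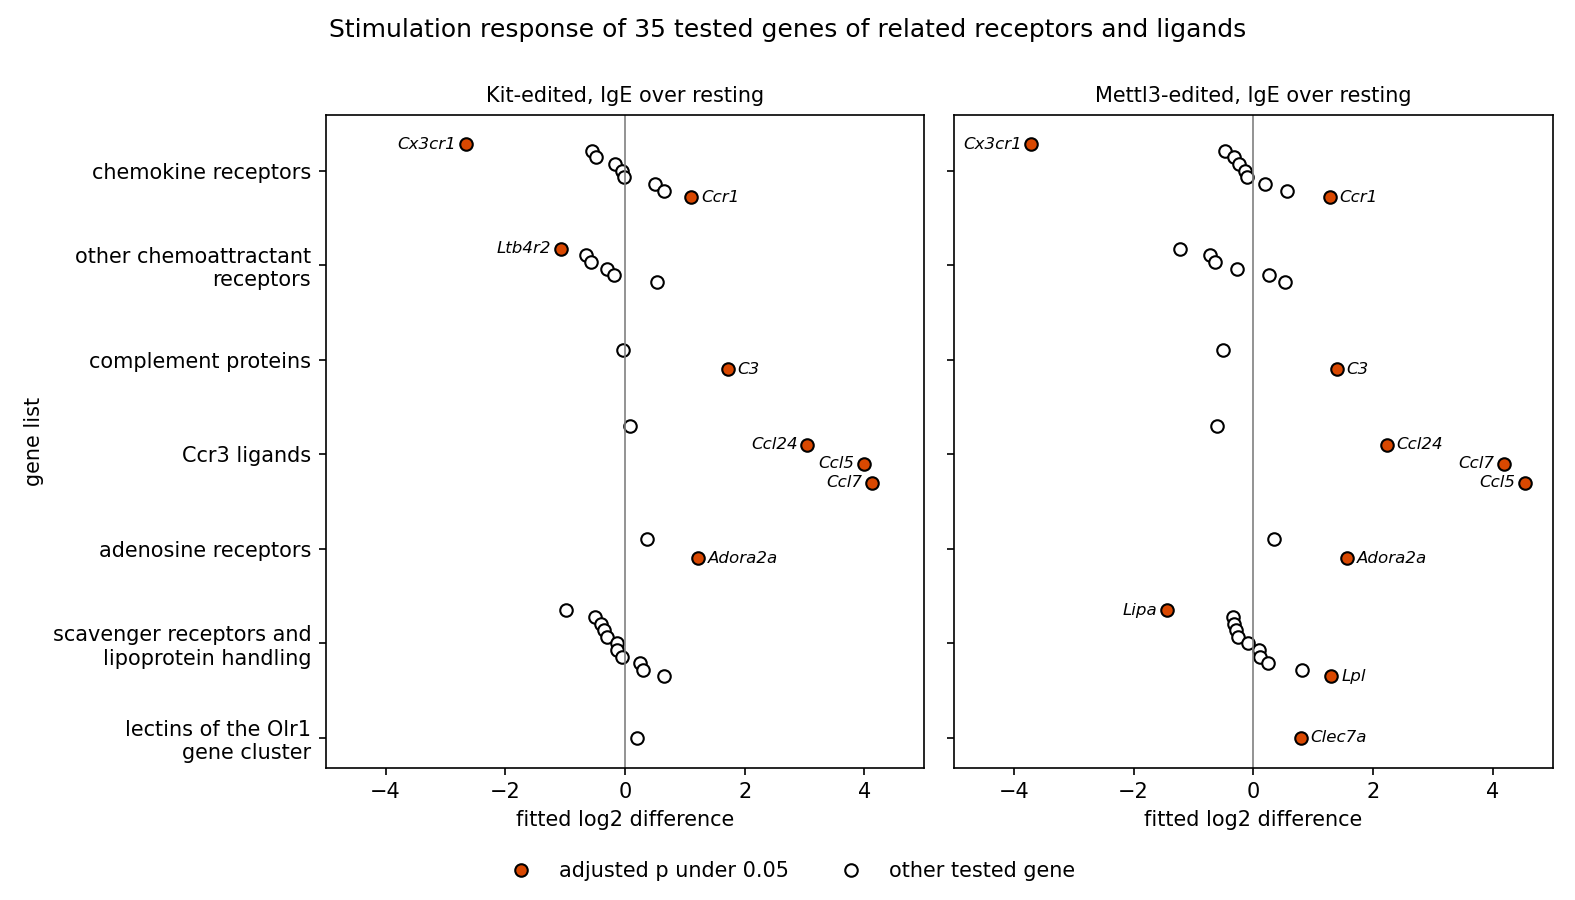
Fitted log2 difference of stimulated over resting cells for 35 tested genes in 7 lists of related receptors and ligands, in Kit-edited (left) and Mettl3-edited cells (right); filled points have an adjusted p under 0.05 in edgeR's test. Ccl5, Ccl7 and Ccl24 lie highest in both panels and Cx3cr1 lowest, with 8 filled points on the left and 10 on the right.

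The genes most like each receptor were found by Pearson's r of log2(scaled count + 1) over the 12 libraries among the 545 genes. This is a description, as the libraries share 4 groups and any gene that responds to stimulation will follow another. C5ar1 was most like the transcription factor Nfil3 (r = 0.97), the cytokine Il1a (r = 0.97) and the adhesion molecule Ceacam1 (r = 0.97). Olr1 was most like the chemokine Ccl4 (r = 0.99), the ubiquitin ligase Peli1 (r = 0.99) and the growth factor Csf2 (r = 0.98). Ccr3 was most like Nfkb1 (r = 0.91), the p105 subunit of NF-kappaB, Vegfa (r = 0.88) and Socs3 (r = 0.87), an inhibitor of cytokine signalling. P2rx1 was most like Angpt1 (r = 0.89), Cytip (r = 0.88) and Amica1 (r = 0.87), of which Angpt1 is a ligand of Tek and Amica1 a junction adhesion molecule. Among the receptors, r was 0.89 for C5ar1 and Olr1, -0.83 for Ccr3 and P2rx1, -0.75 for P2rx1 and Olr1, 0.64 for Ccr3 and Olr1, -0.52 for C5ar1 and P2rx1 and 0.32 for C5ar1 and Ccr3.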

How the data were processed

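mRNA of 12 mast cell samples grown from mouse bone marrow was counted, from 40 ng of RNA each. The authors deposited raw counts of nCounter barcodes per probe, not normalized, with no alignment or genome build. Columns were matched to samples by title, and 0 columns were left without a sample. The deposited table also holds summary columns over the samples, which were not used. The members and gene lists were chosen with earlier results of these data known.

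Counts were scaled by the geometric mean of 20 housekeeping probes. The 545 of 734 genes that reached 20 counts in 3 or more libraries were tested with edgeR 4.0.16 in R 4.3.3 (quasi-likelihood test, 1 model of 4 groups, library sizes from the housekeeping factors, Benjamini-Hochberg adjustment within each comparison, adjusted p under 0.05). The test was tried on simulated counts of 545 genes, for stimulated Mettl3-edited against stimulated Kit-edited cells. It called 130 of the 200 genes given a change and 3 of those given none. A gene that was not called may thus still differ. Gene names in the text are the 4 receptors, Kit, list genes called in a comparison or among the 4 smallest in p of their list, marker genes of other cell types, neighbours within 1 Mb and the 3 genes most correlated with each receptor. List genes such as Hc, Ccl11, Ccl8, Ccl28 and Cd36 that were not tested were named after their values were seen.

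Replicate numbers come from the labels. Deviations from group means correlated with r over 0.1 in 18 of 18 same-numbered pairs (mean 0.33, from 0.14 to 0.52), so the numbers were taken to pair the libraries. The mean of -0.17 for different numbers adds no support. It follows largely from the same-numbered value, because deviations were taken from means of 3 libraries. The main fit nevertheless has no replicate block, so its SEs and p-values do not use this pairing. For C5ar1 in stimulated over resting Kit-edited cells, the SE was 0.77 without and 0.41 with the block. The study's own table numbers the stimulated Mettl3-edited library labelled 3 differently, and the label was kept. Alternatives were TMM normalization, scaling by the 16 housekeeping probes whose mean reached 100, no filter, background subtraction, counts under 20 set to 20, the replicate block with and without the stimulated Mettl3-edited replicate 3, only the groups compared, each replicate left out, and DESeq2 1.42.0. Positions matched for 722 of 734 genes. Results of 2 genes are not reported here.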

Additional observations from a re-analysis of the deposited data

Results flagged for a closer look

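Ccr3 rose with stimulation in Mettl3-edited cells. In Kit-edited cells it showed no clear change, since the groups overlapped and the fitted log2 difference was -0.63 (SE 0.48). It was lower in the stimulated library of 3 of 3 same-numbered Kit-edited pairs and higher in 3 of 3 Mettl3-edited pairs, and the fitted difference between the log2 differences was 2.75 (SE 0.68). The difference was not tested, because Ccr3 was chosen from these comparisons, and 3 of the 6 Kit-edited counts behind it, which ran from 23 to 39 raw counts, were above background.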

How the results depend on the processing

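Subtracting each library's background moved the log2 difference of stimulated over resting cells to -1.32 for Ccr3 and 7.33 for Olr1 in Kit-edited cells and to 3.18 and 6.56 in Mettl3-edited cells, and that of Ccr3 between stimulated genotypes to 3.63, because the counts it is taken from become small. With one replicate left out, that Ccr3 difference ran from 1.75 (without replicate 2) to 2.73, list genes called in Kit-edited cells numbered 2 (without replicate 1), 4 (without replicate 2) and 3 (without replicate 3) against 8, in Mettl3-edited cells 4 (without replicate 1) to 9 against 10, and between stimulated genotypes 0 to 1, the 1 being Cx3cr1 without replicate 3. The P2rx1 difference in Kit-edited cells turned to 0.12 without replicate 3. Each other difference of the 4 receptors kept its sign under all 12 alternatives, and the resting adjusted p of all 4 stayed above 0.05. With the replicate block, the resting log2 difference of C5ar1 was 0.91 (SE 0.36, adjusted p = 0.992 in edgeR's test), and the block changed no call of a receptor and moved no count of list genes called by over 1.5 times. Over all genes, calls between stimulated genotypes were 5 in the edgeR test, 23 by DESeq2, 33 without replicate 3, 45 with the block once replicate 3 of stimulated Mettl3-edited cells was left out, 12 with counts under 20 set to 20, 3 after background subtraction, and 0 without replicate 1, without replicate 2 or with only the groups compared. In Kit-edited cells 103 were called, against 32 to 49 with a replicate left out and 156 with the block, and in Mettl3-edited cells 178, against 71 without replicate 1 and 106 without replicate 2. TMM normalization centres the genes near 0 between stimulated genotypes, where housekeeping scaling leaves a median of 0.20, and moved no receptor across 0. Signal over background limits Ccr3 and resting Olr1.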
